A study of Drosophila melanogaster with 4 samples.

Results

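The Hox genes of Drosophila melanogaster were described by the positions of their transcription starts, as read from RNA of embryos. The members were lab, pb, Dfd, Scr, Antp, Ubx, abd-A and Abd-B, chosen by name, and a transcription start site (TSS) was taken for a member when it lay within 200 bp, on the same strand, of one of the gene's annotated transcript starts. This gave 133 of the 232302 TSSs in the deposited list, at the 8 Hox genes among 13968 protein-coding genes. All 8 had a TSS at a start, against 70.0% of protein-coding genes. Capped small RNA (csRNA-seq), the short 5′ ends of nascent transcripts, was sequenced from Canton S wild-type embryos of 0 to 12 h. There were 3 csRNA-seq libraries and 1 input library, and no mutant or treated group. The deposited list gives a single value for each TSS, taken from 1 of the libraries. No spread between replicates could therefore be computed, no test across replicates was made, and intervals below are 95% intervals for counting error alone. The input library was not analysed here.

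Hox genes encode homeodomain transcription factors that give the segments their identity along the head-to-tail axis. In Drosophila they lie in a pair of complexes on chromosome arm 3R: lab, pb, Dfd, Scr and Antp in the Antennapedia complex, and Ubx, abd-A and Abd-B in the bithorax complex. Their order on the chromosome follows, by and large, the order of the body regions they pattern. Several of them have more than 1 promoter, and promoters of the same gene can be used in different tissues or encode different protein isoforms.

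Coverage is given in reads per 10000000, and each value is a whole number of reads from 1 of the 3 libraries, scaled to that total. A single read was worth 1.37, 1.69 or 2.46 depending on the library, from the largest library (7299457 reads) to the smallest (4070746 reads). The 133 Hox TSSs held 5106 reads, and 28 of them rested on 2 reads each. The libraries supplied 28.6%, 43.6% and 27.8% of the Hox TSSs, against 26.5%, 41.3% and 32.2% of all TSSs. Marker genes were read beside the stage label, from lists chosen with earlier results of these data known, so the counts are a description and not an independent check. All 7 embryonic patterning genes on the list (ftz, zen, eve, wg, en, twi and sna) had TSSs, with summed coverage of 20.8 to 3493. None of the 6 larval or adult genes (ninaE, Yp1, Yp2, Lsp1alpha, Sgs3 and Obp83a) had a TSS at a start. Over all protein-coding genes the share with a TSS at a start was 70.0%.

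The 8 genes have 44 annotated transcripts, which begin at 19 separate starts, each called a promoter here. Of these, 16 had at least 1 TSS and are called used, while 3 had none. Among all protein-coding promoters 66.1% were used. Summed coverage reached 10 at 14 of the 19 Hox promoters, against 57.8% of all promoters. At the 5 genes with several promoters (lab, Scr, Antp, abd-A and Abd-B) 13 of 16 promoters were used, against 68.5% for the promoters of all such genes. At least 2 promoters were used at 4 of these 5 genes, lab being the exception, against 58.9% of all genes with several promoters. The genes pb, Dfd and Ubx have 1 promoter each.

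**Figure D1:**
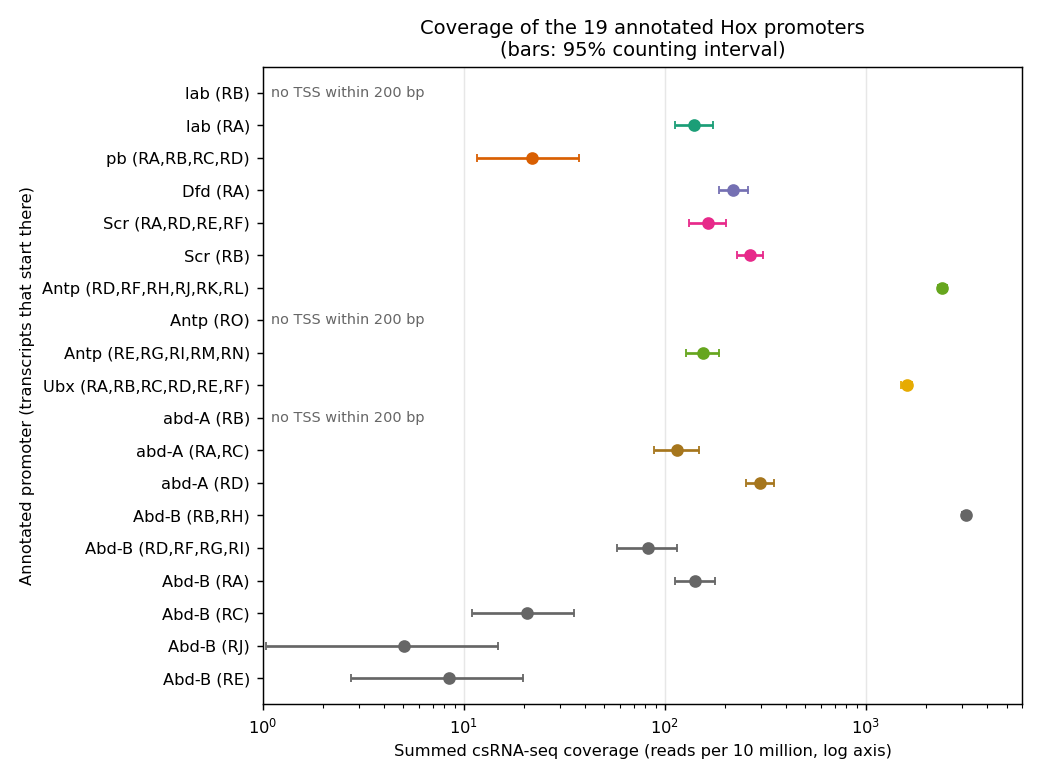
Summed coverage at each of the 19 annotated Hox promoters (reads per 10000000, log axis), with 95% intervals for counting error. Starts run in chromosome order, and the proximal promoters of Abd-B (3143) and Antp (2399) and the Ubx promoter (1595) stand to the right of all others, with no TSS at 3 starts.

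The levels of the 8 genes spanned a wide range. Abd-B, which specifies the posterior abdomen, was highest with a summed coverage of 3402 (interval 3249 to 3561, 1919 reads). Antp, which patterns the thorax, followed with 2554 (2425 to 2688, 1495 reads). Ubx, which sets the identity of the posterior thorax and anterior abdomen, had 1595 (1494 to 1703, 936 reads). These 3 genes held 86.1% of all Hox coverage.

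The other 5 genes lay well below. Scr, which acts in the labial and first thoracic segments and is needed for the salivary gland, had 429 (379 to 484). The gene abd-A, which acts in the middle abdominal segments, had 414 (360.03 to 474). Dfd, which patterns the mandibular and maxillary segments, had 219 (185 to 258). The labial gene lab, which acts in the anterior head and the midgut, had 140.1 (112 to 174), and pb, best known for the adult mouthparts, had 21.9 (11.7 to 37.5) on 13 reads.

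Neighbours in this order differed beyond their counting intervals with 1 exception, Scr and abd-A, whose ratio was 1.04. The ratio was 1.33 for Abd-B over Antp, 1.60 for Antp over Ubx, 3.72 for Ubx over Scr, 1.89 for abd-A over Dfd, 1.56 for Dfd over lab and 6.39 for lab over pb. These intervals hold neither the spread between embryo collections nor the choice of library for each TSS. In whole embryos, fewer cells of a type and less RNA per cell cannot be told apart, so the values are sums over the embryo and over the 12 h of collection.

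The Hox genes were also placed among the 9782 protein-coding genes with a used promoter. Abd-B ranked 489 from the top, with Antp above 93.3% and Ubx above 89.8% of these genes. Scr and abd-A were above 71.0% and 70.3%, Dfd above 55.9%, lab above 45.3% and pb above 15.4%. The median of the 8 Hox genes was 421, against 173 over all genes with a used promoter. Promoter by promoter the gap was narrower, with a median of 148 over 16 used Hox promoters, against 125 over 12112 used promoters.

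**Figure D2:**
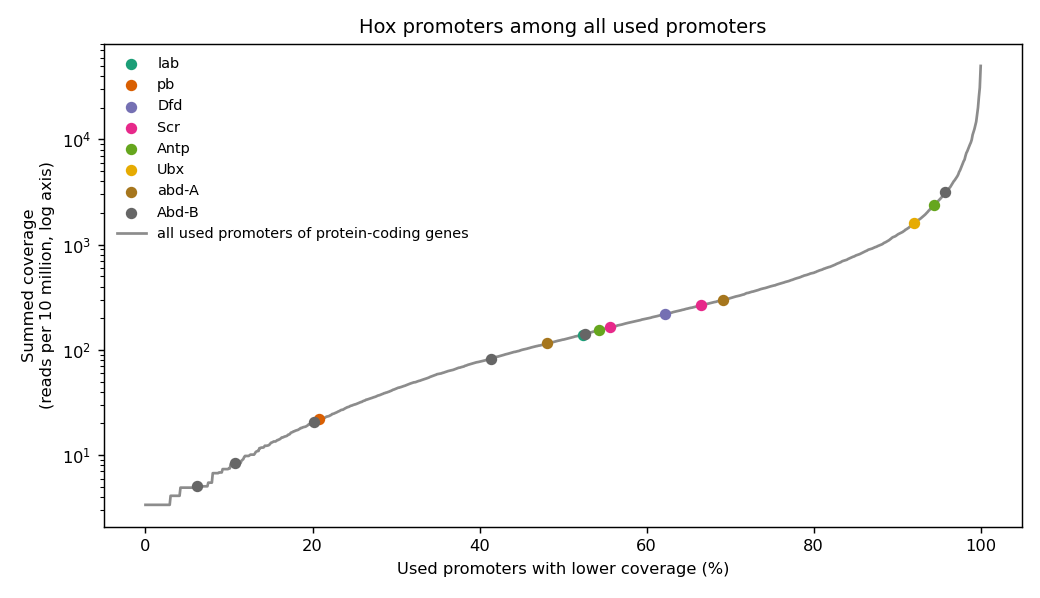
Summed coverage of the used Hox promoters beside the distribution over all used protein-coding promoters (reads per 10000000, log axis). The 16 Hox promoters run from 5.06 to 3143, with a median of 148 against 125 over all promoters.

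In the Antennapedia complex, lab, pb and Dfd each had most of their coverage at 1 position. At lab, transcript RA starts at position 6678590 on the minus strand (dm6, as for all positions here) and encodes a protein of 629 residues. It had 7 TSSs, and the highest, 8 bp downstream of the annotated start, had a coverage of 84.9 (65.1 to 109, 62 reads), 60.6% of the promoter. The second lab start, of RB at 6663454, lies in an intron of RA and is annotated with a protein of 213 residues. No TSS was listed there, and the nearest on that strand lay 1215 bp upstream with 2 reads.

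The pb promoter at 6742063 had 3 TSSs, led by one 9 bp upstream of the annotated start with 15.2 (6.94 to 28.8, 9 reads). It was the single used Hox promoter whose summit, the TSS with the highest coverage, lay upstream of the annotated start. Dfd, the single member on the plus strand, had 8 TSSs at its start at 6791836. Its summit, at +3, had 169 (140.0 to 201, 123 reads) and held 77.0% of the promoter's coverage, the highest summit share among the 13 Hox promoters with at least 3 TSSs.

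Scr has a pair of promoters 1476 bp apart, and both were used. The distal one, of transcript RB at 6849981, had 265 (228 to 308), and the proximal one, shared by RA, RD, RE and RF at 6848505, had 164 (132 to 202), a ratio of 1.62. Both include a protein of 417 residues. The distal promoter was sharp, with 195 of its coverage at 1 position 8 bp downstream of the annotated start and 98.7% within 5 bp of it. The proximal promoter lies in an intron of RB. It had its summit at +1 with 86.0, and a separate TSS at +104 with 16.9 (10 reads). The distance holding the middle 80% of its coverage was therefore 106 bp, although 86.7% lay within 5 bp of the summit.

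Antp was the gene with the largest distance between used promoters. Its proximal promoter at 6932840, the start of 6 transcripts, had 2399 (2274 to 2531, 1383 reads). Its distal promoter, 66388 bp upstream at 6999228 and the start of 5 transcripts, had 154 (127 to 186, 112 reads). The proximal promoter therefore exceeded the distal one 15.5-fold and held 94.0% of the gene's coverage. The ranges of annotated protein length overlap between the promoters, with 297 to 378 residues from the proximal and 361 to 378 residues from the distal one. Transcripts of both promoters share their annotated start codon, 22930 bp downstream of the proximal and 89318 bp downstream of the distal start, and their annotated leaders differ.

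Both Antp promoters were sharp. The proximal summit, at +3, had 1455 (1360 to 1555, 863 reads), and the position beside it, at +4, had 445. The distal summit fell on the annotated start itself with 111 (88.1 to 138, 81 reads), and 100% of that promoter lay within 5 bp of it. The third Antp start, of RO at 6958370, had no TSS, and the nearest on that strand was 1122 bp downstream with 3 reads.

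In the bithorax complex, Ubx had 1 start, at 16734426, from which 6 transcripts begin and proteins of 346 to 389 residues are annotated. Its 11 TSSs formed a double summit. The position at +2 had 578 (519 to 643, 343 reads) and the annotated start itself had 575 (516 to 639, 341 reads), both from the same library, a difference of 2 reads. Together they held 72.3% of the promoter. The position between them, at +1, had 152 (117 to 195, 62 reads), a value from another library, so the dip between the summits compares libraries. Within 5 bp of the summit lay 99.4% of the coverage.

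The 2 used promoters of abd-A had the lowest summit shares among the 13 Hox promoters with at least 3 TSSs. Transcript RD starts at 16830049 and had 298 (253 to 351) over 17 TSSs, with a summit at +9 of 89.4 (53 reads) that held 29.9%. Transcripts RA and RC start 297 bp further downstream, at 16829752, inside an exon of RD, and had 115 (88.3 to 149) over 13 TSSs. The ratio was 2.59, and both promoters encode the same 330 residues. At the RA and RC start the highest TSS, on the annotated base, had 20.2 (10.5 to 35.3, 12 reads) and a TSS at +3 had 19.7 (8 reads), so their intervals overlapped and no single position led. This was also the single used Hox promoter with no TSS in the authors' deduplicated list, which held 1 TSS for each of the other 15. That list keeps the most covered TSS where windows of 200 bp to either side overlap, and the stronger RD start is 297 bp away. The third start, of RB at 16828105, is annotated with a longer protein of 590 residues and had no TSS. The nearest lay 1362 bp upstream with 4 reads.

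Abd-B had the most promoters, 6, and all were used. The shortest transcription unit of the gene, that of RB and RH, is known to make the longer protein, called morphogenetic, and the upstream promoters a shorter one, called regulatory, that lacks its amino-terminal part. The RB and RH promoter at 16934242 encodes 493 residues. It had 3143 (2997 to 3296, 1776 reads) and held 92.4% of the gene's coverage. The other 5 Abd-B promoters together had 258.

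The upstream Abd-B promoters were low and uneven. Transcript RA at 16960281 had 142 (112 to 178), 22.2-fold below the RB and RH promoter, and the start shared by RD, RF, RG and RI at 16944273 had 82.7 (58.03 to 114), 38.0-fold below. RA encodes 270 residues and the shared start 270 to 323, from the same annotated start codon. Transcript RC at 16963641 had 20.7 (11.0 to 35.5) on 13 reads, RE at 16972236 had 8.43 on 5 reads, and RJ at 16968574 had 5.06 (1.04 to 14.8) on 3 reads. The outermost starts, of RE and of RB and RH, are 37994 bp apart.

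The lowest of these promoters have to be read beside the TSSs that lie elsewhere in the same genes. Away from annotated starts, 52 of 812 windows of 401 bp in the 8 gene bodies (6.40%) held a TSS on the gene's strand, and 12 (1.48%) reached a coverage of 10. The RJ and RE promoters were the 2 used Hox promoters under 10. The TSSs of RC lay at +77 (15.2, 9 reads) and +43, while the summits of the other 15 used Hox promoters lay within 15 bp of the annotated start. The RC start is also inside an exon of RJ.

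**Figure D3:**
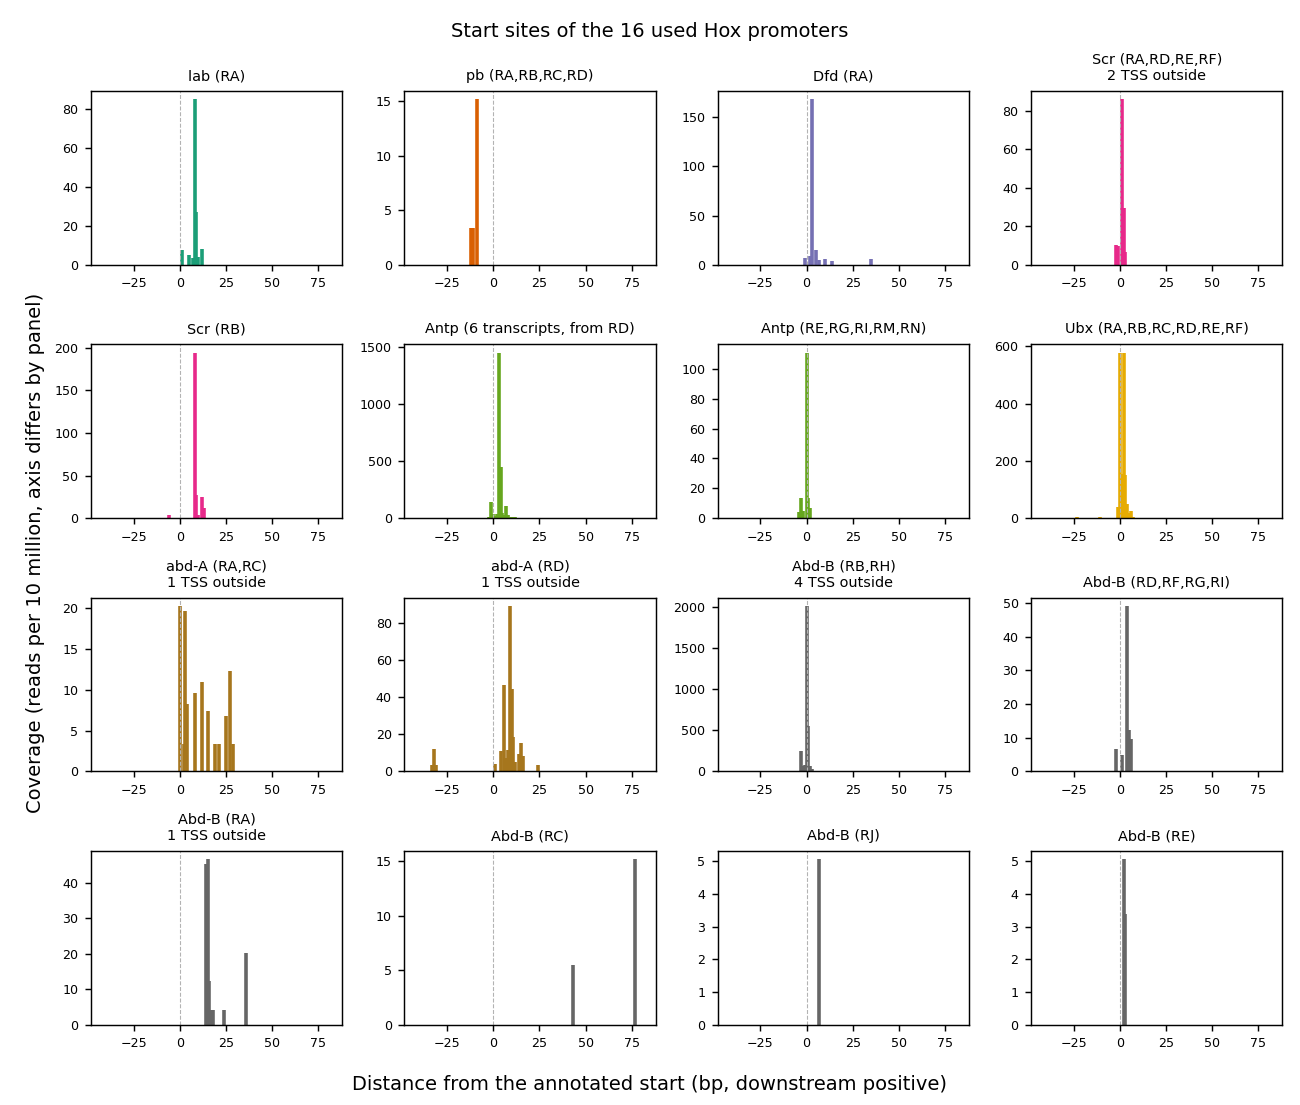
Coverage at each TSS (reads per 10000000, vertical axis different in every panel) against distance from the annotated start (bp, downstream positive) at the 16 used Hox promoters. Dfd and the strong Antp and Abd-B promoters have 1 tall position, Ubx has a pair of similar height from 1 library (578 and 575), and abd-A RA,RC has no leading position.

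The annotated starts and the measured summits were close together. The summit lay on the annotated base at 3 of the 16 used Hox promoters, downstream at 12 and upstream at 1. The median offset, downstream positive, was 3 bp at the Hox promoters, against 5 bp over all used promoters (quartiles 0 and 25 bp). With a lower quartile of 0 bp, most summits over all used promoters also lay on or downstream of the annotated start. The Hox summit was within 5 bp at 9 promoters, and the share of all used promoters within that distance was not computed. The median distance was 3.5 bp for the Hox promoters, against 11 bp over all used promoters (quartiles 3 and 32 bp).

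Most Hox promoters started over a short stretch. Among promoters with at least 3 TSSs and a coverage of at least 100, the middle 80% of the coverage spanned a median of 5 bp at the 11 Hox promoters, against 25 bp over 6641 protein-coding promoters, whose quartiles were 5 and 51 bp. The summit held a median of 60.6% of the coverage at the Hox promoters, against 38.5% over all. The median number of TSSs was 8 at the Hox promoters, against 18 over 6662 promoters of that coverage without a minimum number of TSSs. The exceptions were the proximal Scr promoter (106 bp), abd-A RA and RC (28 bp) and Abd-B RA (23 bp), whose leading positions at +15 and +14 had 46.7 and 45.2, from different libraries. Neighbouring TSSs of a promoter can carry values of different libraries, which bears on every sum, summit share and width here. These comparisons are descriptions without a test, and promoters of the same gene are not independent.

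**Figure D4:**
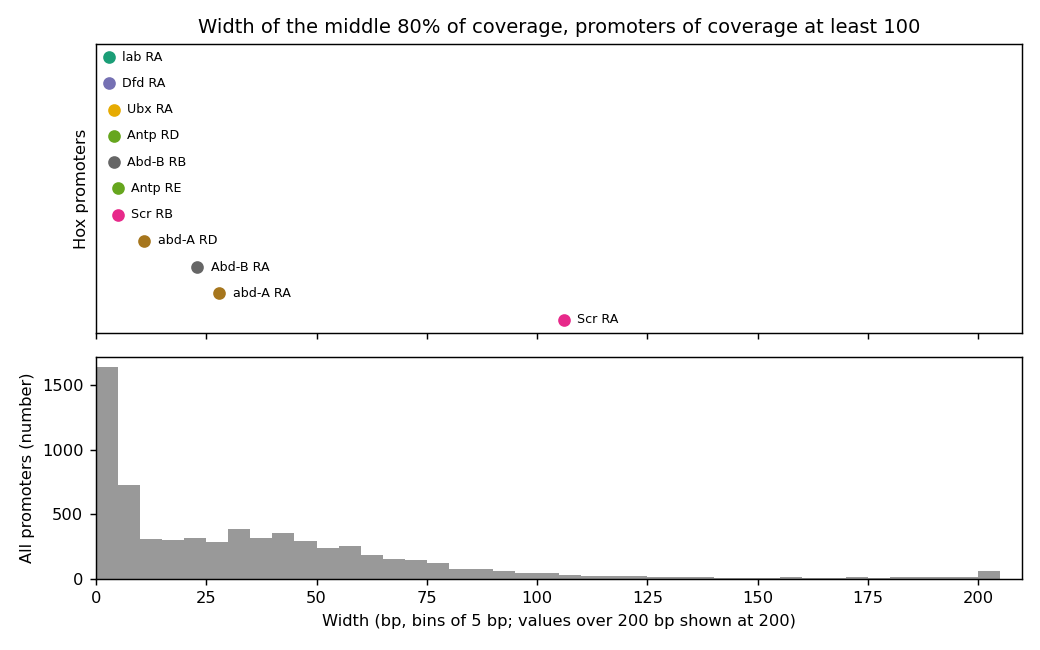
Width of the middle 80% of the coverage (bp) at the Hox promoters and at all protein-coding promoters, each with at least 3 TSSs and a coverage of at least 100. The Hox median is 5 bp, and the widest Hox promoter is the proximal one of Scr at 106 bp.

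TSSs on the opposite strand within 500 bp upstream of the summit were present at 7 of the 16 used Hox promoters, against 45.0% of all used promoters. At a coverage of at least 100 they were present at 6 of 11 Hox promoters, against 53.1% of all. None of these 11 had an annotated start on the opposite strand within 700 bp upstream, and among all promoters with that property the share was 32.4%. Upstream opposite-strand coverage reached 10 at Ubx, both Antp promoters and the proximal Scr promoter. The share of all used promoters that reach this level was not computed.

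The highest opposite-strand TSS was upstream of Ubx. It lay 304 bp from the summit and had a coverage of 115 (89.03 to 145, 68 reads), 7.19% of the Ubx promoter, and the nearest annotated start on that strand was 14483 bp away. Upstream of the distal Antp promoter a TSS at 406 bp had 64.1 (45.3 to 87.9, 38 reads), 41.5% of that promoter, with an annotated start on its strand 858 bp away. Upstream of the proximal Scr promoter a TSS at 477 bp had 35.4 (21.9 to 54.1, 21 reads), 21.6% of that promoter. The proximal Antp promoter, 15.5-fold stronger than the distal one, had 3 opposite-strand TSSs upstream that summed to 16.7. At lab, pb and abd-A RA and RC a single TSS of 2 or 3 reads was found. None was listed within that distance at Dfd, the distal Scr promoter, abd-A RD or any of the 6 Abd-B promoters, including the RB and RH promoter with its 3143.

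Downstream of the summit, opposite-strand TSSs within 500 bp were listed at 1 of 16 used Hox promoters, abd-A RD with 2 reads, against 23.2% of all used promoters. That TSS lies between the abd-A starts and is the same one that counts as upstream of RA and RC. At a coverage of at least 100 the count was 1 of 11, against 28.3%.

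**Figure D5:**
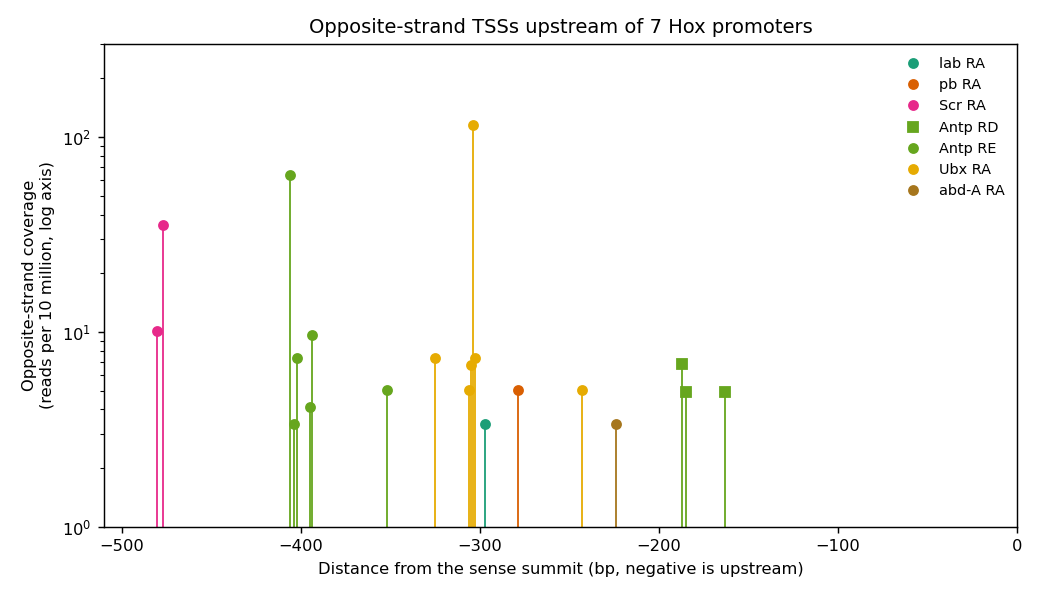
Opposite-strand TSSs upstream of 7 used Hox promoters by distance from the summit (bp) and coverage (reads per 10000000, log axis). The 3 tallest belong to Ubx (115), the distal Antp promoter (64.1, labelled RE) and the proximal Scr promoter (35.4, labelled RA).

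Other genes of the 2 complexes and known Hox partners were read in the same way. All 8 had at least 1 TSS, against 70.0% of protein-coding genes. Of the homeobox genes inside the Antennapedia complex without a homeotic role, bcd, the maternal anterior determinant, had 161 (91 reads). The pair-rule gene ftz had 143, zen, needed for dorsal tissues, had 20.8, and its neighbour zen2 had 3.37 on 2 reads. Whether the bcd reads came from transcription in the embryo or from RNA laid down by the mother was not tested. The same holds for every coverage given here. The Hox cofactor gene hth had 5954, above Abd-B, and exd, which encodes the other cofactor, had 697. Of the 3 exd promoters 2 were used, against 68.5% for the promoters of all genes with several promoters. The trunk gene tsh had 4451, and cad, which acts in the posterior embryo, had 1770 (1651 to 1895).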

How the data were processed

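Capped small RNA from Canton S embryos (0 to 12 h) was sequenced in 3 csRNA-seq libraries, with 1 input library. The authors trimmed adapters, aligned reads to dm6 with STAR and called TSSs from read 5′ ends with HOMER (minimum 3). The paper also states that background input was controlled for when TSSs were identified. Its supplementary methods name no such step for the embryo data. The deposited coverage is a signal scaled by the authors to 10000000 reads, and the authors' deduplicated list keeps the most covered TSS of overlapping windows. Per the submitters' processing notes the tools were bcl2fastq 2.17, STAR 2.7.9a, HOMER 4.11 and bedtools 2.30.0. The deposited log2 scores were not used.

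Every one of the 232302 values was a whole number of reads (within 1e-06) times the step of 1 of 3 libraries of 7299457, 5931389 and 4070746 reads, and 0 values fitted more than 1 library. How the library was chosen for each TSS is not given in the sources used here, and it can differ between neighbouring TSSs. Counting intervals (95%) were exact Poisson for 1 TSS and the gamma interval of Fay and Feuer for sums. They cover counting error alone, since PCR duplicates were not told apart.

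Starts came from Ensembl 115 (BDGP6.54, the coordinates of dm6), and starts within 200 bp were joined. All 8 members were matched by name. The members, the partner list and the marker lists were chosen with earlier results of these data known. The genes named are the 8 members with all their promoters, the partner list and the marker lists. Distances, read minimums, joining distance, transcript class, the deduplicated list and unscaled reads were varied. The recovery of reads, the assignment and the intervals were tested on simulated data. Core promoter motifs were not analysed here, since no genome sequence was used. Computation was done in Python 3.11.15 (SciPy 1.17.1, NumPy 2.4.6, pandas 2.3.3), with plots drawn in matplotlib 3.10.9.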

Additional observations from a re-analysis of the deposited data

Results flagged for a closer look

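A start outside every annotated Antp promoter stood out because it lies in data that the promoter values do not use. The TSS at position 6966763 on the minus strand had a coverage of 138 (110.0 to 172, 82 reads). It lies in an Antp intron, 8393 bp upstream of the RO start, at which no TSS was listed. It belongs to a cluster of 14 TSSs with a summed coverage of 271 (229 to 319, 152 reads), above the 154 (127 to 186) of the annotated distal promoter. No control level was at hand, since the input was not analysed here, and the origin of these TSSs was not tested.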

How the results depend on the processing

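The count of 16 used Hox promoters was the same with TSSs within 50 or 500 bp of a start or at least 3 reads per TSS. Restriction to protein-coding transcripts could not change it, since all 44 Hox transcripts encode proteins. Joining starts within 50 bp could not either, since every Hox start is already separate at 200 bp. The count was 15 with starts joined within 500 bp or the deduplicated list, and 14 with at least 5 reads or a summed coverage of 10. Summed Hox coverage of 8774 moved to 8507 with at least 5 reads per TSS and is 5106 as unscaled reads. At 5 reads abd-A moved to 348. The order of the genes by coverage differed only in the deduplicated list, where Dfd and abd-A changed places. The median width of 5 bp was 4.5 bp with at least 3 reads per TSS. Opposite-strand TSSs upstream were present at 7 promoters within 500 bp, at 1 within 200 bp and at 8 within 1000 bp. No paired analysis was possible because the list holds 1 value per TSS, and for the same reason no replicate could be left out. Depth limits pb and the Abd-B RC, RE and RJ promoters, each of 13 reads or fewer, and an unlisted start may lie below the minimum of the list.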

Other observations

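Within the 8 Hox genes, 89 TSSs on the gene's strand lay more than 200 bp from every annotated start of the gene and had a summed coverage of 736, against 8774 at the starts. Antp held 39 of them, with 392, Ubx held 14 with 77.1, and Abd-B held 12 with 80.5. At pb the 8 TSSs in the gene body had 66.9, against 21.9 at the annotated start, and the highest of them had 17.8. At lab 10 TSSs had 69.6, against 140.1 at the RA start. The body sums run over genes of 34264 bp (pb) and 17164 bp (lab), while a start value covers 200 bp to either side. Of the windows of 401 bp away from starts, 6 of 84 held a TSS at pb (7.14%) and 7 of 40 at lab (17.5%), against 6.40% over the 8 genes.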
